A study of Caenorhabditis elegans with 4 samples.

Results

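Of the 2713 CES-1 binding regions in the combined list, 285 (10.5%) had the centre of another region within 1000 bp on the same chromosome. These closely spaced regions were chosen by the distance between centres in that list alone. Chaining neighbours at this distance grouped them into 137 clusters, of which 128 were pairs, 7 held 3 regions and 2 held 4. The other 2428 regions had no neighbour so near and are the comparison throughout.

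CES-1 was mapped by chromatin immunoprecipitation and sequencing (ChIP-seq) in whole L3 hermaphrodites of the Caenorhabditis elegans strain OP174, raised at 20 degrees. The worms were unc-119(ed3) mutants with the bombarded transgene wgIs174, which holds ces-1 fused to TY1, EGFP and FLAG as well as an unc-119 gene. The labels name no mutation of the worm's own ces-1 gene, so the tagged protein may be an addition to the untagged one, and a single transgenic strain stands behind all libraries. There were 2 ChIP replicates, made with an antibody against GFP, and 2 input DNA replicates. The ChIP libraries had 873921 and 1320404 uniquely mapped reads (11.8% and 11.7% of all reads). The input libraries had 1535649 and 907103 (66.8% and 73.1%). The effect of the lower ChIP share on the region lists was not tested.

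CES-1 is a zinc-finger transcription factor of the Snail family, whose members bind E-box-like DNA elements and often act as repressors. In C. elegans it is best known for its part in deciding which cells of the pharyngeal NSM neuron lineage undergo programmed cell death, through the cell death gene egl-1. A protein that binds several elements of the same regulatory stretch gives ChIP enrichment at neighbouring positions, which a region caller may return as a single wide region or as separate narrow ones. A genome of the build used by the lists (WormBase WS220) was not used here, so the regions are given by position, with no gene, exon, intron or sequence.

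Neighbouring regions in a cluster were separated by a median gap of 478 bp (quartiles 337.5 and 634.5, 148 neighbouring pairs). The gaps ran from 204 to 882 bp. No gap under 200 bp occurred between any of the 2707 neighbouring pairs of the combined list, nor in the replicate lists, where the smallest gaps were 258 bp in replicate 1 and 204 bp in replicate 2. Whether the region caller returns nearer stretches as a single region was not tested. The closest pair lay on chromosome II, where 204 bp separated the region from 6346778 to 6347036 from that at 6347241 to 6347429. Their scores, −log10 of the authors' q-value, were 2.58 and 2.02, and neither replicate list held them. The clusters spanned a median of 1056 bp, from 332 to 2713 bp.

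**Figure D1:**
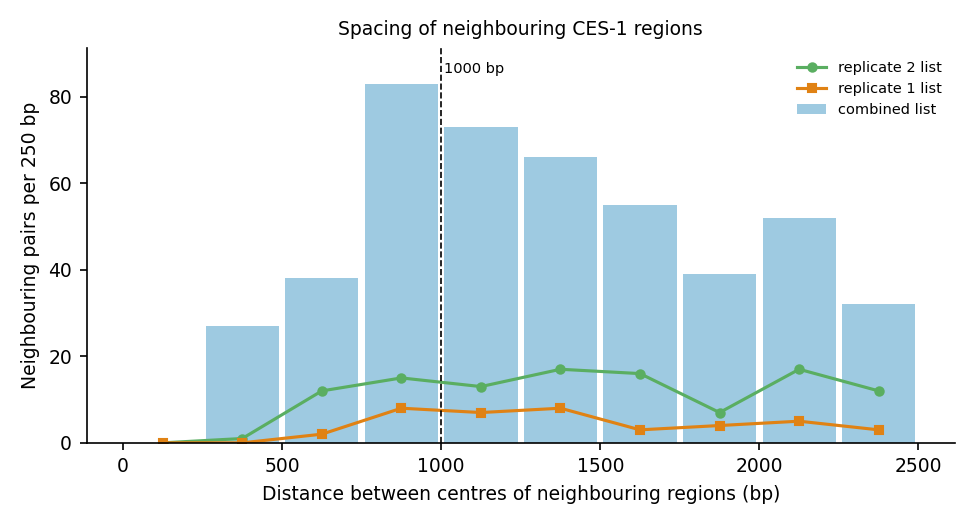
Number of neighbouring region pairs (y axis) by the distance between their centres in bp (x axis, steps of 250 bp), as bars for the combined list and as lines for the replicate 1 and replicate 2 lists. The dashed line marks 1000 bp, and the combined list holds 27 pairs from 250 to 500 bp, 83 from 750 to 1000 bp and 73 from 1000 to 1250 bp.

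The distance of 1000 bp cut through a continuous range of spacings. With 250 bp steps, 38 pairs lay from 500 to 750 bp apart, 83 from 750 to 1000 bp and 73 from 1000 to 1250 bp. Just inside the limit were the pair on chromosome III at 5372708 to 5372982 and 5373813 to 5373877, with centres 1000 bp apart and scores of 4.74 and 2.20, a pair within the cluster of 4 at III 4655981 to 4658693 (999 bp), and a pair on V at 10857413 to 10857584 and 10858227 to 10858764 (997 bp, scores 2.53 and 3.43). Just outside were 2 pairs on IV, at 11592973 to 11593041 and 11593363 to 11594660 (1004 bp, scores 2.72 and 12.7) and at 8431272 to 8431319 and 8431552 to 8433056 (1009 bp, scores 2.35 and 11.3), and 1 pair on V at 11435584 to 11435647 and 11436461 to 11436814 (1022 bp, scores 2.24 and 2.58). On IV the excluded pairs had gaps of only 321 and 232 bp. Each joined a narrow region to one 1298 or 1505 bp wide, so a rule on centres can leave out neighbours of wide regions.

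The strongest closely spaced region lay on chromosome III, from 6317209 to 6317769, with a combined score of 22.7. Its replicate scores were 9.53 and 13.96. Its neighbour on the left, 430 bp away at 6316489 to 6316778, scored 3.40 and was called in replicate 1 alone, with 2.39. A single strong region beside a weak one was found in 4 of the 5 clusters with the highest scores. Ranking clusters by their highest score ensures a strong member. The median score of all combined regions was 3.10, so this contrast is partly set by the choice.

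On chromosome V the region from 1151283 to 1151968 scored 14.1, with 6.00 in replicate 1 and 5.30 in replicate 2, and the region 395 bp after it scored 3.07 and was called in neither. On the same chromosome the region from 7111189 to 7111758 scored 12.2 (5.38 and 5.39 in the replicates), and its neighbour at 7110263 to 7110772, nearly as wide, scored 2.89 and was called in neither. On III the region from 1745662 to 1746067 scored 11.4 (5.85 and 5.20), and its neighbour at 1745009 to 1745116 scored 2.71 and was again called in neither. In these 3 clusters both replicates supported the same member and left out the other.

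The fifth of these clusters, on chromosome II from 8587589 to 8589605, held 2 regions that both replicates called. The first, 8587589 to 8588031, scored 11.0, with 3.06 in replicate 1 and 6.76 in replicate 2. The last, 8589245 to 8589605, scored 5.47, with 2.25 and 3.84. Between them lay a region of 171 bp with a score of 2.16 that was in neither replicate list.

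Clusters with at least 2 members called in both replicates as separate regions numbered 4. Besides that on chromosome II, the cluster on chromosome I from 4008782 to 4010616 had outer regions with nearly equal combined scores, 9.59 and 10.1. Replicate 1 gave these 3.74 and 3.57, and replicate 2 gave 3.01 and 2.85. The region of 65 bp between them scored 2.54 and was in neither list. A region narrower than both outer ones, and with a lower score, lay in the middle here and in that cluster on II. The same held in the clusters of 3 at I 3822509 to 3824606 (scores 8.55, 2.08 and 6.10 in order) and III 8873029 to 8874596 (4.88, 2.17 and 8.00). It also held at IV 10935235 to 10937179 (2.89, 2.52 and 10.3) and at II 6346778 to 6348015 (2.58, 2.02 and 3.65), where no member was called. In the cluster of 3 at III 7949187 to 7950360 the first region scored lowest (2.20, 2.35 and 5.45). Width counts towards the distance between centres, and how far the rule favours a narrow middle region was not tested.

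The remaining 2 of the 4 were pairs. On chromosome II, 10760790 to 10761136 and 10761580 to 10761947 scored 5.42 and 9.16 in the combined list. Replicate 1 gave them 2.09 and 3.25, and replicate 2 gave 2.81 and 4.82. On III, 3542128 to 3542473 and 3543075 to 3543356 scored 4.91 and 6.00, with 2.08 and 3.24 in replicate 1 and 2.83 and 2.64 in replicate 2. The stronger of these members was the same in both replicates in 3 of the 4 clusters, and the pair on III was the exception.

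**Figure D2:**
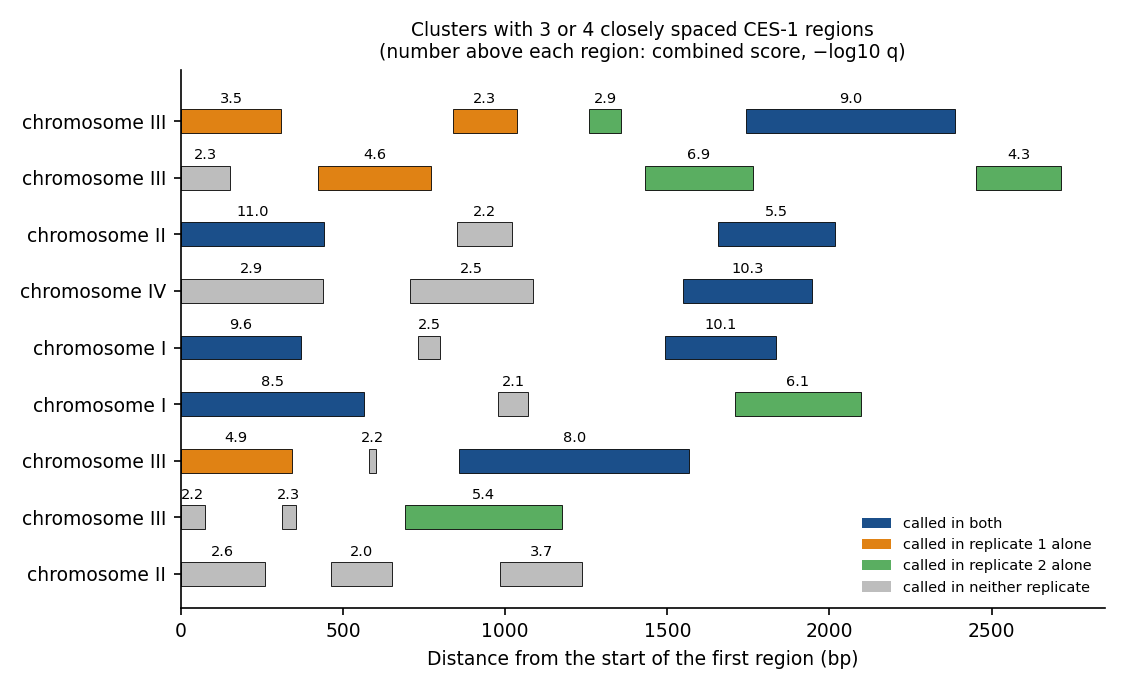
Maps of the 9 clusters with 3 or 4 regions, drawn to scale by distance in bp from the start of the first region (x axis), 1 cluster per row with its chromosome. Bar colours give the replicate lists that held the region and the number above each bar is its combined score. Regions called in both replicates stood at an end of their cluster, at both ends in 2 of them. An end is the commoner position in a cluster of 3, and the order was not tested. The highest-scoring region of the cluster at III 4655981 to 4658693 (6.95, replicate 2 alone) was not at an end.

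The clusters of 4 both lay on chromosome III. The first spanned 2388 bp from 833757 to 836144, and each of its members was called in at least 1 replicate. Its last region, 644 bp wide, scored 8.96 and was in both lists (4.25 and 3.96). The deposited list carries a comment that the lift to WS220 changed the internal structure of this region. The first and second regions scored 3.47 and 2.35 and were in replicate 1 alone, and the third scored 2.89 and was in replicate 2 alone.

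The second cluster of 4 had the longest span of all, 2713 bp, from 4655981 to 4658693. Its scores in order were 2.34, 4.59, 6.95 and 4.34. Replicate 1 called only the second of these regions (2.88), and replicate 2 only the third (5.53) and the last (2.64). The replicate lists thus had no position in common within this cluster.

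Among the 7 clusters of 3, that on chromosome IV from 10935235 to 10937179 reached 10.3 in its last region, with 3.74 and 5.31 in the replicates. Its other regions scored 2.89 and 2.52 and were in neither list, although they were 439 and 380 bp wide against 395 bp for the strong one. Width alone therefore did not separate strong from weak members in this cluster.

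Clusters varied in how far the highest-scoring region stood above the next. The difference between the highest and the next combined score had a median of 1.35 (quartiles 0.447 and 2.68) and ran from 0.0074 to 19.3. In 42 of the 128 pairs it exceeded 2, and in 37 it was below 0.5. In 13 of the 137 clusters the next score was 4 or more, and in 2 clusters, both on chromosome I, it was 6 or more. At the other end, every score was below 3 in 31 clusters, and in 24 of these no member was called in a replicate.

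For the 137 highest-scoring members the median score was 4.01, and for the 148 other members it was 2.53. Median widths were 292 bp for the former and 180.5 bp for the latter. Of the former 85 (62.0%, 95% Wilson interval 53.7 to 69.7) were called in a replicate and 33 in both. Of the latter 42 were called (28.4%, 21.7 to 36.1) and 5 in both. The ranking was made on scores from the same reads, so these differences are a description of the clusters. Wilson intervals here and below cover counting error only.

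**Figure D3:**
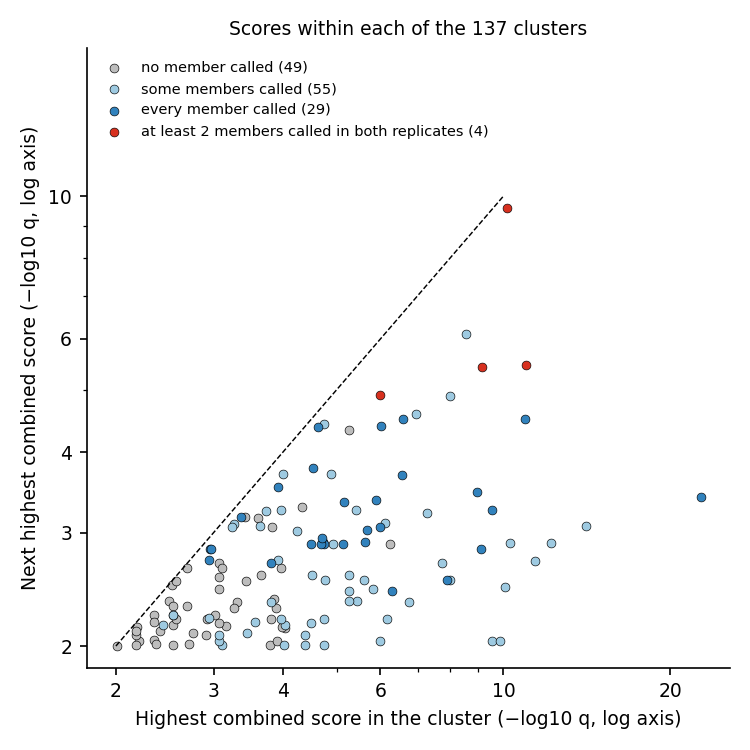
Highest combined score (x axis) against the next highest (y axis) in each cluster, both −log10 q on log axes, with a dashed line of equality. Colours separate clusters by how many members a replicate list held, and the 4 clusters with at least 2 members called in both replicates, shown apart from the other classes, have next scores from 4.91 to 9.59.

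At the limit of 1000 bp, replicate support for closely spaced regions was much like that for the list as a whole. Of the 285 regions, 127 overlapped a region of at least 1 replicate list by 1 bp or more (44.6%, 38.9 to 50.4), where 47.7% of all combined regions did. Both replicates called 38 of them (13.3%, 9.87 to 17.8), where the share of all combined regions was 16.3%. Replicate 1 called 56 (19.6%) against 21.4% of all, replicate 2 called 109 (38.2%) against 42.6% of all, and 158 (55.4%) were in neither list against 52.3% of all. Among regions without a near neighbour, 48.1% (46.1 to 50.1) had support in either list and 16.6% (15.2 to 18.2) in both. At this limit the intervals of the groups overlap in each of these shares. With a limit of 500 bp support was lower, at 15 of 54 regions (27.8%, 17.6 to 40.9), with a median score of 2.47. That interval lies below the 47.7% of all combined regions. With a limit of 2000 bp support was 49.5% (45.8 to 53.2). The part of the scores in this was not tested. No test was run, because members of a cluster can share DNA fragments and the replicate lists come from the reads that made the combined list. The replicates share a merged input control, and the labels do not say whether they came from separate cultures.

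At matched combined scores the groups also had similar support. Of closely spaced regions that scored from 2 to 2.5, 4 of 84 were called in a replicate (4.76%, 1.87 to 11.6), against 8.10% (6.21 to 10.5) of those without a neighbour. The values were 35.2% (23.8 to 48.5) and 26.8% (23.1 to 31.0) from 2.5 to 3, and 43.8% (32.3 to 55.9) and 52.1% (48.0 to 56.2) from 3 to 4. From 4 to 6 they were 88.0% and 86.3%. Neither group was ahead throughout, and the order changed from band to band. Above a score of 10, each of the 9 closely spaced regions was in both replicate lists. This was near the share of the 131 others, of which replicate 1 called 125 (95.4%) and replicate 2 called 131. From 6 to 10, a single closely spaced region of 24 had no support, while 203 of 203 others had it. That region, on chromosome I from 7518222 to 7518913, scored 6.24 and was 692 bp wide. Its neighbour at 7517498 to 7517704 scored 2.88.

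**Figure D4:**
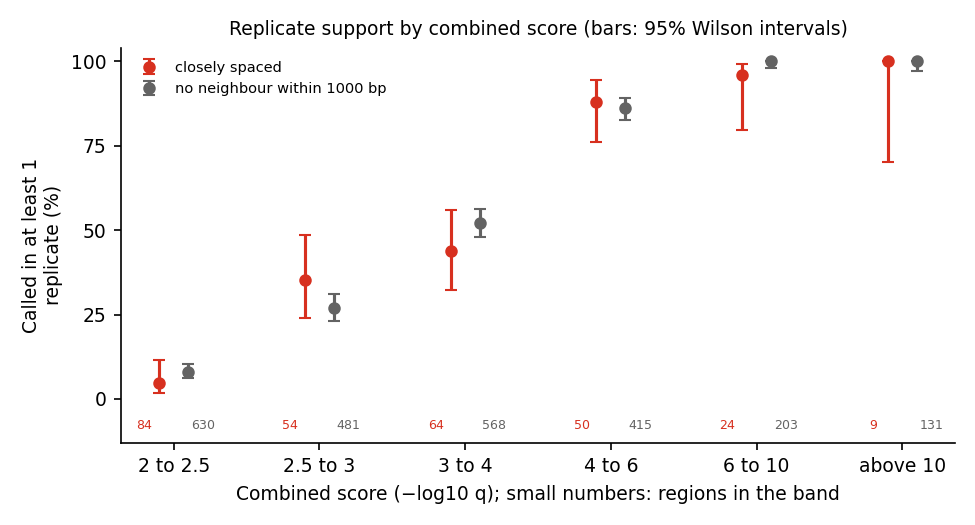
Share of regions called in at least 1 replicate in percent (y axis) by band of combined score (x axis), for closely spaced regions and for regions with no neighbour within 1000 bp, with 95% Wilson intervals and the number of regions in each band. The intervals of the groups overlap in every band.

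That pair on chromosome I was the strongest cluster without any support. The next were a pair on I with regions at 9787649 to 9788126 and 9788528 to 9788867, which scored 5.26 and 4.34, and a pair on II at 1320423 to 1320678 and 1321376 to 1321496, which scored 4.33 and 3.29. Chromosome I had low support in general: 25.3% of its 400 combined regions were called in a replicate. Of its 50 closely spaced regions 15 were called (30.0%, 19.1 to 43.8), 4 in replicate 1 and 15 in replicate 2, and 24.6% (20.4 to 29.3) of its other regions were. Without chromosome I the support was 47.7% for closely spaced regions and 52.1% for those without a neighbour.

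Seen by cluster, support ranged from none to complete. No member was called in 49 of the 137 clusters, some but not every member in 57, and every member in 31. Where exactly 1 member was called, which was so in 52 clusters, it was the highest-scoring in 49. Calls rise with the combined score, which comes from the same reads, so this count is a description only. Replicate 1 held no member of 92 clusters, 1 member of 35 and at least 2 separate regions in 9. Replicate 2 held no member of 55, 1 member of another 55 and at least 2 separate regions in 26. Regions that joined neighbours were rare. A single replicate 1 region covered both members at X, 13349327 to 13350022, and a single replicate 2 region covered both at II, 6844742 to 6845327. At least 2 members were called in the same replicate in 32 clusters (23.4%, 17.1 to 31.1).

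In 39 clusters each replicate called some member. The members were the same in 19 of them. In 10 the replicate 1 members were a part of the replicate 2 members, in 4 the reverse held, and in 1 the sets overlapped in part. In the remaining 5 the replicates had no member in common. These were the cluster of 4 on III at 4655981 to 4658693 and 4 pairs. On II, 5859929 to 5860179 (combined score 4.50) was called in replicate 2 with 2.32 and its neighbour 5860637 to 5861042 (6.58) in replicate 1 with 3.74. Also on II, 6827446 to 6827706 (3.53) was called in replicate 2 with 2.32 and 6828226 to 6828709 (3.92) in replicate 1 with 2.27. On IV, 6958829 to 6959031 (3.03) was called in replicate 1 with 2.55 and 6959482 to 6959826 (5.67) in replicate 2 with 3.33. On V, 11167833 to 11168053 (3.18) was called in replicate 1 with 2.55 and 11168542 to 11168906 (3.36) in replicate 2 with 2.07. A score missing from a replicate list means that the region did not pass there, and its signal in that replicate is not given.

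The same rule found few closely spaced regions in the replicate lists themselves. Replicate 1 had 20 among its 592 regions (3.38%, 2.20 to 5.16), in 10 pairs, and replicate 2 had 56 among 1195 (4.69%, 3.63 to 6.04), in 28 pairs. Neither list held a group of more than 2. Of these pairs, 7 of 10 in replicate 1 and 22 of 28 in replicate 2 fell within a cluster of the combined list, and the others touched none. The lists differ in length and in the depth behind them, and the part of either in these shares was not tested.

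Across all scores, closely spaced regions and the others had nearly the same median width. It was 223 bp (quartiles 137 and 337) against 222 bp (148 and 322) for regions with no neighbour. The widest was 1097 bp, on chromosome I from 7082108 to 7083204, while the comparison group reached 3515 bp and held 19 regions over 1000 bp. Width is tied to the rule, since the widths of both neighbours count towards the distance between centres. By band of score the medians of closely spaced regions and of the others were 128.5 and 135 bp from 2 to 2.5, 172 and 178 bp from 2.5 to 3, and 244.5 and 233 bp from 3 to 4. They were 340.5 and 303 bp from 4 to 6, 393.5 and 396 bp from 6 to 10, and 443 and 512 bp above 10, where only 9 closely spaced regions lay.

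Of the 285, 25 were less than 50 bp wide (8.77%, 6.01 to 12.6), as were 9.39% (8.29 to 10.6) of the others. At III 7390105 and at 7390505 to 7390508, a cluster consisted of regions of 1 and 4 bp with scores of 2.01 and 2.00. Scores this low lie at the edge of the deposited list, whose q-values end just below 0.01. Where a replicate called a closely spaced region, its own region was usually narrower, in 47 of 56 cases in replicate 1 and in 96 of 109 in replicate 2. The median width relative to the combined region was 0.774 and 0.792, against 0.762 and 0.828 for regions without a near neighbour.

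The median combined score was 3.07 (95% order-statistic interval 2.89 to 3.18) for closely spaced regions and 3.11 (3.07 to 3.22) for the others. Very strong regions were few: 9 of 285 scored above 10 (3.16%, 1.67 to 5.89), against 131 of 2428 (5.40%, 4.57 to 6.37). Regions above 10 were wide, with medians of 443 and 512 bp, and a rule on centres can leave out neighbours of wide regions. The part of the rule in these shares was not tested. In the replicates the scores of called regions were alike as well. Their medians were 2.70 in replicate 1 for both groups, and in replicate 2 they were 2.64 for closely spaced regions and 2.65 for the others. Among the 38 closely spaced regions in both lists, replicate 2 gave the higher score in 29. The same count was not made for the 404 other regions in both lists, so it cannot be called particular to closely spaced regions.

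At the distance of 1000 bp, chromosome II held the most closely spaced regions and X the smallest share. On II, 68 of 452 regions had a near neighbour (15.0%, 12.0 to 18.6). The share was 12.5% on I (9.61 to 16.1), 11.0% on III (8.42 to 14.2), 10.3% on V (7.71 to 13.6) and 9.16% on IV (6.72 to 12.4). On X it was 38 of 593 (6.41%, 4.70 to 8.67), and on the autosomes together 247 of 2120 (11.7%, 10.4 to 13.1). The interval of X lies below those of I, II and the pooled autosomes and overlaps those of III, IV and V. A region is closely spaced only together with another, and there were 19 clusters on X, 24 on I and 33 on II. The intervals treat regions as independent and are therefore too narrow, and the separation of X was not tested. X had 33.6 combined regions per Mb, close to the 33.2 of chromosome III, and the autosomes together had 25.8.

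The difference between X and the autosomes lay at distances from 500 to 1000 bp. Within 500 bp the share of closely spaced regions was 2.02% on X and 1.98% on the autosomes. Neighbouring pairs with centres from 500 to 1000 bp apart made up 13 of 592 on X (2.20%) and 108 of 2115 on the autosomes (5.11%). From 1000 to 2000 bp the order turned, with 9.63% on X and 8.32% on the autosomes. With a limit of 2000 bp the share of closely spaced regions was therefore 23.4% (20.2 to 27.0) on X and 25.8% (24.0 to 27.8) on the autosomes, with overlapping intervals. The order of the chromosomes also changed with the limit. At 2000 bp X held the most closely spaced regions, 139 against 121 on III and 116 on II, and IV had the smallest share with 22.8%, next to 23.4% on X. At 500 bp V had none of 408, with an upper Wilson limit of 0.933%. In the replicate lists, with the limit of 1000 bp, X had 2 of 159 in replicate 1 (1.26%, 0.346 to 4.47) and 10 of 269 in replicate 2 (3.72%, 2.03 to 6.71). The autosomes had 18 of 433 (4.16%, 2.65 to 6.47) and 46 of 926 (4.97%, 3.74 to 6.56), with intervals that overlap those of X. Single autosomes were lower than X in these lists, I and V in replicate 1 with none and V in replicate 2 with 3.13%.

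**Figure D5:**
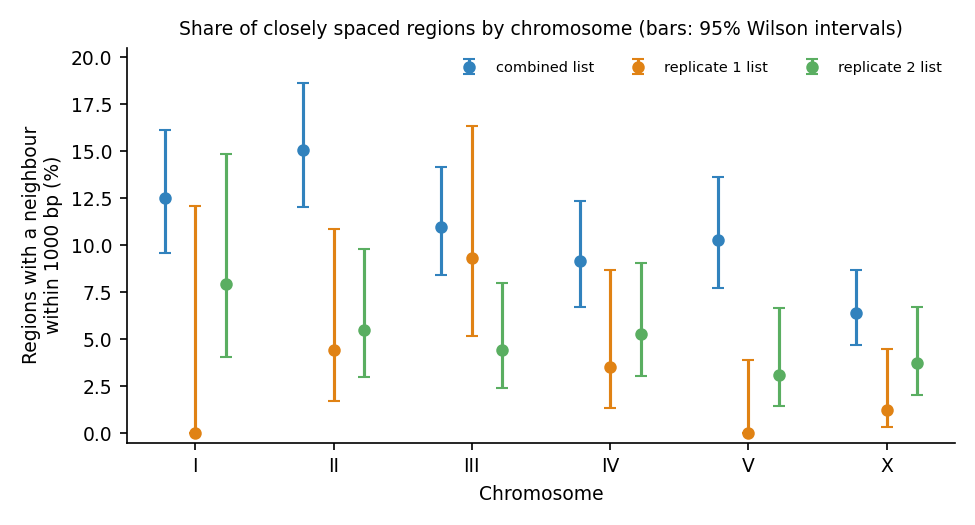
Share of regions with a neighbour within 1000 bp in percent (y axis) on each chromosome (x axis) in the combined list and in each replicate list, with 95% Wilson intervals. In the combined list the points run from 6.41% on X to 15.0% on II, and in replicate 1 chromosomes I and V have none of 28 and 94 regions, with upper Wilson limits of 12.1% and 3.93% (3 counts would be 10.7% and 3.19%).

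The closely spaced regions of X were also weak. Their median combined score was 2.48, against 3.24 for the other X regions, and 20 of the 38 scored below 2.5 (52.6%, against 23.8% of the others). On each autosome the median of closely spaced regions lay from 3.03 to 3.26. Replicates called 12 of the 38 (31.6%, 19.1 to 47.5) and 51.7% (47.6 to 55.8) of the other X regions. Support depends on score, and the part of the lower scores in this difference was not tested. Of the 19 X clusters, 10 had no member called, and 3 had a member in both replicate lists. The strongest reached 10.1 at X, 8800882 to 8801857, followed by 6.11 at 15616406 to 15617409 and 6.02 at 6736653 to 6737894. On I, no member was called in 14 of 24 clusters and 3 had a member in both lists. On II these counts were 11 and 10 of 33 clusters.

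Along the autosomes, closely spaced regions lay in the central 50% of the chromosome about as often as the others, at 64.4% (58.2 to 70.1) against 62.3% (60.1 to 64.5). Chromosome lengths were taken as the end of the last combined region. Single chromosomes differed more. On IV, 13 of 37 closely spaced regions were central (35.1%, 21.8 to 51.2), against 62.4% (57.3 to 67.2) of the others, and on V 36 of 42 were (85.7%, 72.2 to 93.3), against 67.8% (62.8 to 72.3). On X the shares were 63.2% (47.3 to 76.6) and 51.4% (47.2 to 55.5). Only on IV do these intervals not overlap. Members of a cluster nearly always fall on the same side of such a boundary, so there are fewer independent positions than regions: IV had 18 clusters and V 21.

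Neighbouring clusters lay a median of 479819 bp apart, and clusters were found in 73 windows of 1 Mb, along 99.7 Mb in all. Windows were not counted for the other regions. The windows with the most were II from 6000001 to 7000000 with 7 clusters and I from 7000001 to 8000000 with 6. In 4 places clusters followed each other at 3000 bp or less, a limit chosen after the distances were seen. The longest such run lay towards the left end of chromosome V, where 3 pairs spanned 7191 bp from 1151283 to 1158473. Its regions scored 14.1 and 3.07 in the first pair, 2.83 and 9.10 in the second, and 3.64 and 3.07 in the third. Both replicates called the strong region of the first pair (6.00 and 5.30) and that of the second, 1154925 to 1155390 (2.39 and 5.62). The third pair was supported in replicate 1 alone, with 2.59 for its first region. The other runs held 2 pairs each, at II 1320423 to 1324421, II 5944882 to 5947668 and V 10262929 to 10266394, and none of their regions scored above 5.26.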

How the data were processed

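The authors deposited 3 lists of regions called with PeakSeq, per the file headers, in WormBase WS220 coordinates, each region with a q-value. The deposited sample table gives read counts of 36 bp reads per sequencing run. It assigns a list to each ChIP replicate and the combined list to their merged alignments, all against a merged input. Neither the aligner nor a caller version is given in the sources used here.

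Centres were taken as the rounded-down mean of start and end, and neighbours at 1000 bp or less were chained into clusters. Scores are −log10 of the q-value and serve only to describe and rank regions. Support means at least 1 bp shared with a replicate region, and bedtools 2.31.1 gave the same counts. Python 3.11.15, pandas 2.3.3 and scipy 1.17.1 were used. The rule and the overlaps were checked on constructed lists.

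The members, the measures and the rule for naming clusters were chosen with earlier results of these data known. Named were the 5 clusters with the highest scores, the 5 with the most members, those with at least 2 members in both replicates, the 3 pairs on either side of 1000 bp, and the 3 strongest clusters without support. Other regions were named after their values were seen.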

Additional observations from a re-analysis of the deposited data

How the results depend on the processing

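Settings were changed 1 at a time, and a value counts as moved where it left the 95% interval of the reported one. Of 80 such values, 35 stayed within it. Regions of at least 50 bp and the lists without chromosome I gave no moved value. The gap rule and all settings for the shares of X and autosomal regions were chosen after seeing the data.

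Centres within 500 bp left 1.99% of the combined regions, with support of 27.8%, 5.56% in both replicates, a median width of 157 bp, a median score of 2.47, a central autosomal share of 52.4%, 22.2% of them on X, and 11.1% of clusters with 2 members in the same replicate. The shares of X and autosomal regions were then 2.02% and 1.98%. Support of all combined regions does not depend on the distance, and was 47.7%, with 16.3% in both replicates. Centres within 2000 bp gave 25.3% of regions, 20.2% of them on X, with 23.4% of X and 25.8% of autosomal regions. A score of at least 3 gave 4.85% of regions, support of 67.6%, 22.5% in both, a width of 284 bp, a score of 3.97, 5.63% on X, 37.1% of clusters with 2 members in the same replicate, and 1.21% of X against 5.91% of autosomal regions. Support among all combined regions also rose with score, from 51.3% at 3 to 4 to 86.5% at 4 to 6 and 99.6% at 6 to 10. The 67.6% is therefore no gain particular to closely spaced regions. A gap of 500 bp or less between edges gave 6.38% of regions, 17.9% in both replicates, and 3.37% of X against 7.22% of autosomal regions. The lower value on X was thus reversed, by a small margin, at 500 bp. The cause of these moves was not tested, beyond that a longer or shorter distance and a score limit change the number of regions by construction.

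With 50% reciprocal overlap, support was 37.9% and 16.8% of clusters had 2 members in the same replicate. The support of all combined regions was not counted under this overlap. Leaving out a replicate gave support from 19.6% to 38.2%, where all combined regions had 21.4% to 42.6%, and from 7.30% to 19.7% of such clusters. With the rule on a replicate list, closely spaced regions made up 3.38% to 4.69%, their median width was 224.5 to 257.5 bp, their median score 2.44 to 2.64, their central autosomal share 60.9% to 77.8%, and 10.0% to 17.9% of them lay on X. The shares were 1.26% to 3.72% of X and 4.16% to 4.97% of autosomal regions. The central autosomal share was 53.8% for the central 40% and 72.5% for the central 60%. No paired analysis was possible because the lists give each region a single q-value, called against the merged input, with no signal for a single input library and no value where a replicate did not call a region. Whether the 873921 uniquely mapped reads of replicate 1 limited its calls was not tested.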
